A study of Mus musculus with 4 samples.

Results

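The imprinted genes Nnat, Meg3, Rian, Peg3, H19, Dlk1, Plagl1, Snrpn, Ndn and Impact were examined in sorted mouse beta cells, the insulin-producing cells of the pancreatic islet. They were taken by gene symbol from deposited tables of 31017 gene names. Of these 10 genes, 9 had a row, 8 had counts and passed the low-count filter, H19 had a row with 0 counts in every library, and Rian had no row under that name. The set was drawn up with earlier results of these data known. All 4 libraries came from islets of 10-week-old wild type C57BL/6J males that were cultured overnight, dissociated with trypsin and sorted by flow cytometry on CD63, a tetraspanin of lysosomes and secretory vesicles. The CD63 high group and the CD63 low group had 2 libraries each, and the labels do not say whether these are separate animals or sorts; the p-values therefore cover only library-to-library spread, which may be technical. In bulk RNA, fewer cells of a type and less RNA per cell cannot be told apart.

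An imprinted gene is transcribed mainly from the copy inherited from 1 parent. The choice is set by DNA methylation laid down at control regions in the germ line and kept through cell division by factors such as the zinc finger protein ZFP57 and its partner TRIM28. Many imprinted genes act on growth, and several are active in endocrine cells: Nnat, Peg3, Plagl1, Snrpn, Ndn, Impact and Dlk1 are expressed from the paternal copy, and the long noncoding RNAs Meg3, Rian and H19 from the maternal copy. The counts used here are sums over a gene and hold no information on which copy was read.

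Total counts were 29249270 to 35003307 per library, and Ins1 and Ins2 together took 48.7% to 56.4% of them. Values below are given for replicates 1 and 2 of each group in that order, with the CD63 high and CD63 low groups called the high group and the low group. Cd63, the sorting marker, stood at 1974 and 2077 CPM (counts per library size in the usual CPM unit, scaled by the trimmed mean of M-values, TMM) in the high group versus 1186 and 1120 CPM in the low group, which checks the labels only. All 12 beta cell markers had counts, and 4 of them were called lower and 0 higher in CD63 high cells. Markers of other cells moved with the sort, given here as sums in CPM by total counts. The 10 alpha cell markers, led by Gcg and with Peg10 at 0, summed to 5563 and 5771 in the high group versus 423 and 565 in the low group, and 2 of 7 tested were called higher. The 4 delta cell markers, led by Sst, summed to 465 and 842 against 67.6 and 48.7, with 3 of 3 tested called higher, and the 3 gamma cell markers, led by Ppy, to 2403 and 3894 against 515 and 310, with 3 of 3. The 13 acinar markers with a row, led by Ctrb1, summed to 995 and 1446 against 25.9 and 382, with 5 of 13 called higher, and the 10 duct markers, led by Spp1 and with Cftr at 0, to 3339 and 1864 against 1098 and 1288, with 1 of 8. The 14 macrophage markers, led by Ctss, summed to 209 and 695 against 29.8 and 52.8, with 13 of 14 called higher. Endothelial, stromal and Schwann cell markers, led by Esam, Sparc and Gfra3, summed to at most 12.5 in any library, with Cdh5, Tie1, Pdgfra, Thy1 and Cdh19 at 0 counts. Of these, 1 of 4 tested stromal markers was called higher, Sparc (5.88 on the log2 scale, edgeR adjusted p 0.00972), and 0 of 4 endothelial and 0 of 4 Schwann cell markers were called. The part of these cells in the values below was not tested.

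No gene of the set was called different between CD63 high and CD63 low cells. With edgeR's quasi-likelihood test and Benjamini-Hochberg adjustment over all genes, 0 of the 8 tested genes had an adjusted p under 0.05, where 2.79% of the 13241 tested genes did. DESeq2 and limma-voom also called 0 of the 8, where they called 5.18% and 2.14% of all tested genes. At an unadjusted p under 0.05 stood 1 of the 8, Peg3, against 14.9% of all tested genes. It was lower in CD63 high cells, as were 5.96% of all tested genes at that p, and 8.95% were higher. Log2 fold changes, CD63 high over CD63 low, lay between -0.58 and 0.51 with a median of 0.01, beside a median of -0.01 over all tested genes. Levels of the groups did not overlap for 6 of the 8 genes, 4 higher and 2 lower in CD63 high, while 46% of all tested genes showed no overlap, 23.8% higher and 22.2% lower. The set together held 13255 and 10913 counts in the high group and 14535 and 16194 in the low group, or 394 to 479 CPM.

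**Figure D1:**
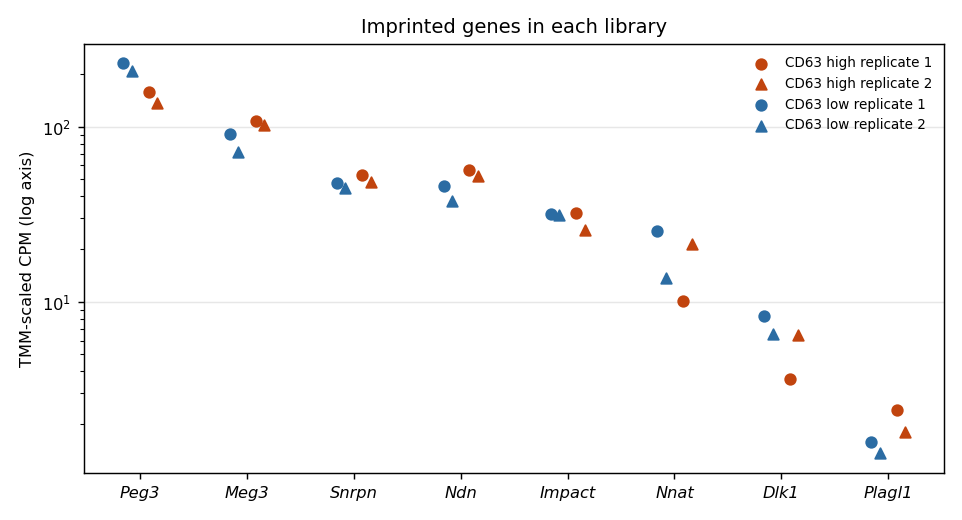
TMM-scaled CPM on a log axis for the 8 tested genes of the set in each of the 4 libraries, CD63 high in orange and CD63 low in blue, replicate 1 as circles and replicate 2 as triangles. Peg3 lies highest, with both CD63 high libraries below both CD63 low ones, and Nnat shows the libraries of the 2 groups intermixed.

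Per length of exon, the order was Snrpn, Peg3, Ndn, Nnat, Impact, Meg3, Dlk1 and Plagl1. In RPKM (TMM-scaled CPM per kilobase of exon), means over the 4 libraries were 22.4 ± 1.62 for Snrpn, 13.7 ± 3.26 for Peg3, 13 ± 2.19 for Ndn, 9.63 ± 3.8 for Nnat, 8.80 ± 0.858 for Impact, 5.14 ± 0.880 for Meg3, 1.10 ± 0.339 for Dlk1 and 0.228 ± 0.0568 for Plagl1 (SD, n = 4, groups pooled). Snrpn exceeded Peg3 in 4 of 4 libraries without overlap, and so did Impact over Meg3, Meg3 over Dlk1 and Dlk1 over Plagl1. The neighbours Peg3 and Ndn, Ndn and Nnat, and Nnat and Impact had overlapping ranges over the pooled libraries. Their pooled order is therefore not settled. By group, Ndn lay above Peg3 in both CD63 high libraries, at 15.3 and 14.05 against 11.9 and 10.2 RPKM. Peg3 lay above Ndn in both CD63 low libraries, at 17.2 and 15.7 against 12.4 and 10.2 RPKM. Snrpn was above 89.8% of tested genes by this measure and Plagl1 above 10.5%. The per-length scale divides by all annotated exon bases of a gene, 18089 for Meg3 against 1829 for Nnat, and by CPM, which ignores length, Meg3 followed Peg3. Nnat and Dlk1 varied most between libraries, by 2.48-fold and 2.28-fold from lowest to highest, and Snrpn and Impact least, by 1.19-fold and 1.24-fold.

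**Figure D2:**
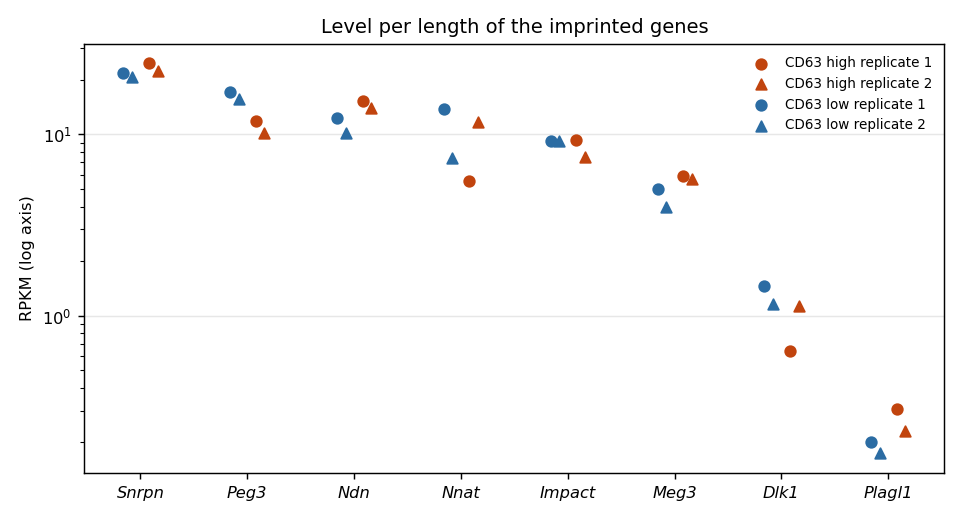
RPKM on a log axis for the 8 tested genes, ordered by their mean over the 4 libraries, with the same colours and symbols for groups and replicates. Snrpn stands above all others near 22, neighbours from Peg3 to Impact overlap, and Dlk1 and Plagl1 lie clearly below. Impact lies below Peg3 and Ndn in every library.

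Promoter sequence shows where these genes can carry methylation, which acts on the cytosine of CpG dinucleotides. RefSeq windows on GRCm38.p6, the assembly that mm10 names, were found for 8 of the 10 genes, in 12 windows of 250 bases before a start site. These held a median of 4.5 CpG, where all 32851 windows of that length held a median of 6. Snrpn had 4 of the 12 windows, with 2 to 4 CpG each, and Meg3 had 2, with 10 and 0. The values are thus per window and not per gene. At least 10 CpG were found in 3 of the 12 windows and in 37.8% of all windows. The letters TGCCGC on either strand, the motif that ZFP57 binds when methylated, occurred in 2 of the 12, of Plagl1 and of Meg3, and in 8.68% of all windows. These 3 windows with the most CpG, and the stretch from which Peg3 and Usp29 start in opposite directions, are shown 5′ to 3′ on the strand of the named gene, with each CpG in capitals.
Peg3, shared with Usp29, chr7:6730420-6730582, minus strand: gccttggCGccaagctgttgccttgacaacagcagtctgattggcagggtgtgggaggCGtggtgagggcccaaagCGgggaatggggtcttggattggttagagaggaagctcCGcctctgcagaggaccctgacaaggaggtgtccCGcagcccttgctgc
Nnat, chr2:157559828-157560077, plus strand: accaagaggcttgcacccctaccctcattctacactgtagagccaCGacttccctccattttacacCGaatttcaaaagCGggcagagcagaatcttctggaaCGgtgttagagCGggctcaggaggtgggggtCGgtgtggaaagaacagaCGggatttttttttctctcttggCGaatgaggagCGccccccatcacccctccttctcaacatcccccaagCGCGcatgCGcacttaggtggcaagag
Plagl1, chr10:13090582-13090831, plus strand: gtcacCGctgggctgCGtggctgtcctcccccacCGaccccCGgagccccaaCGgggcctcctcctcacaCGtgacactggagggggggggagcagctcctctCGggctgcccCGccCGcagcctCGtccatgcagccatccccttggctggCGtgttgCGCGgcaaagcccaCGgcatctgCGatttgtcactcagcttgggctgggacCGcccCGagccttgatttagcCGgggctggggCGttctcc
Meg3, chr12:109540746-109540995, plus strand: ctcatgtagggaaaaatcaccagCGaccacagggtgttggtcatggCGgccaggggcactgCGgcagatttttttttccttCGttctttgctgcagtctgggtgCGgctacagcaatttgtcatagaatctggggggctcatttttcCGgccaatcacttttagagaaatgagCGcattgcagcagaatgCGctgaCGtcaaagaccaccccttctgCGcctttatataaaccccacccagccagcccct
The Plagl1 window, before a RefSeq start inside the annotated gene, held 19 CpG, that of Nnat 12 and that of Meg3 10. These matches describe letters only and say nothing about methylation in these cells.

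Peg3 (chromosome 7, 6703892 to 6730431, mm10) encodes a large zinc finger protein that binds DNA and is known for effects on growth and maternal behaviour. It reached 158 and 136 CPM in the high group and 229 and 209 CPM in the low group. Both CD63 high libraries lay below both CD63 low libraries. The level was 1.49-fold lower in CD63 high cells, with a log2 fold change of -0.58 (SE 0.19, 95% interval -1.0 to -0.15), an unadjusted p of 0.0134 and an edgeR adjusted p of 0.173. Peg3 was the gene of the set nearest to the threshold and did not pass it. It was lower in CD63 high cells in each of 15 alternative analyses and passed in 1, which was chosen after seeing the data, with log2 fold changes of -0.69 to -0.47 and edgeR, DESeq2 or limma adjusted p of 0.0345 to 0.700.

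Usp29, a paternally expressed ubiquitin protease gene, and Zim1, a maternally expressed zinc finger gene, are neighbours of Peg3. Although the starts of Peg3 and Usp29 are only 163 bases apart, Usp29 stood at 0.398 to 0.733 RPKM against 10.2 to 17.2 RPKM for Peg3. The RPKM ratio of Peg3 to Usp29 was 16.2 and 21.4 in the high group and 24.1 and 39.4 in the low group. Per length, Peg3 was more than 16 times Usp29 in all 4 libraries, and the ratio was lower in both CD63 high libraries. The size of this ratio depends on the annotated exon bases, 18078 for Usp29 and 13324 for Peg3. By CPM, Usp29 stood at 7.19 to 13.2 against 136 to 229 for Peg3. The ratio of Peg3 to Zim1 overlapped between the groups, at 66.9 and 40.0 in the high group and 28.5 and 73.6 in the low group. An exact permutation of 2 against 2 libraries cannot give a two-sided p under 0.333, so this and the other ratios were not tested. Usp29 itself had a log2 fold change of 0.12 (SE 0.35), and Zim1, at 0.178 to 0.603 RPKM, one of -0.91 (SE 0.58), with edgeR adjusted p of 0.924 and 0.523.

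Nnat (chromosome 2, 157560078 to 157562522, mm10) encodes neuronatin, a small membrane protein of the endoplasmic reticulum that is known in beta cells to aid the processing of preproinsulin. It lies within the body of Blcap, on the other strand, and shares no exon base with it. Nnat stood at 10.1 and 21.5 CPM in the high group and 25.2 and 13.6 CPM in the low group, from 318 to 765 counts. Replicates of the same group differed by about as much as any libraries did, and the groups overlapped. The log2 fold change was -0.29 (SE 0.38, 95% interval -1.13 to 0.54; edgeR adjusted p 0.801). It changed sign without CD63 high replicate 1 (0.15) and without CD63 low replicate 1 (0.21), and reached -0.93 without CD63 high replicate 2 and -0.66 without CD63 low replicate 2, so no direction can be given for Nnat. Blcap, named for a link to bladder cancer, was steadier, at 44.4 and 54.9 CPM against 60.1 and 51.6 CPM (-0.17 on the log2 scale, SE 0.21, edgeR adjusted p 0.790).

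The Dlk1-Dio3 region of chromosome 12 holds 3 genes of the set, paternally expressed Dlk1 and maternally expressed Meg3 and Rian. Meg3 (109541001 to 109571726, mm10) is a nuclear long noncoding RNA that shares 6.79% of its exon bases with Gm26906, a gene on the other strand with 0 counts. The 1228 exon bases of Gm26906 lie wholly within those of Meg3, and counting used no strand option. Fragments that fit both genes are left uncounted. The 0 counts of Gm26906 therefore say nothing about its expression, and the level of Meg3 may be understated. Meg3 stood at 107 and 103 CPM in the high group and 90.3 and 71.6 CPM in the low group. Both CD63 high libraries lay above both CD63 low libraries, by a log2 fold change of 0.37 (SE 0.20, 95% interval -0.07 to 0.82), which did not pass with an edgeR adjusted p of 0.434. Dlk1 (109452823 to 109463336, mm10) encodes a membrane protein of the Notch ligand family without the usual receptor-binding domain. It stood at 3.61 and 6.43 CPM in the high group and 8.24 and 6.55 CPM in the low group. The groups were barely apart, with a log2 fold change of -0.56 (SE 0.37, 95% interval -1.38 to 0.26; edgeR adjusted p 0.547). CD63 high replicate 1 was the low library, and without it the log2 fold change was -0.20, against -1.03 without CD63 high replicate 2.

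The RPKM ratio of Meg3 to Dlk1 was 9.29 and 4.99 in the high group and 3.43 and 3.42 in the low group. It was higher in both CD63 high libraries, and the 2 CD63 low libraries were almost equal. The 9.29 came from CD63 high replicate 1, where Dlk1 had 113 counts. How often ratios of other gene pairs are apart was not computed, and 46% of all tested genes showed no overlap by themselves. Mirg, the maternally expressed microRNA host at the far end of the region, was at 1.70 to 3.13 CPM with overlapping groups (0.11 on the log2 scale, SE 0.53, edgeR adjusted p 0.957). The ratio of Meg3 to Mirg also overlapped, at 13.8 and 24.4 in the high group and 13.1 and 16.8 in the low group. The paternally expressed Rtl1, a gene of retrotransposon origin, had 0 to 11 counts, and Dio3, a deiodinase gene, had none in any library.

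**Figure D3:**
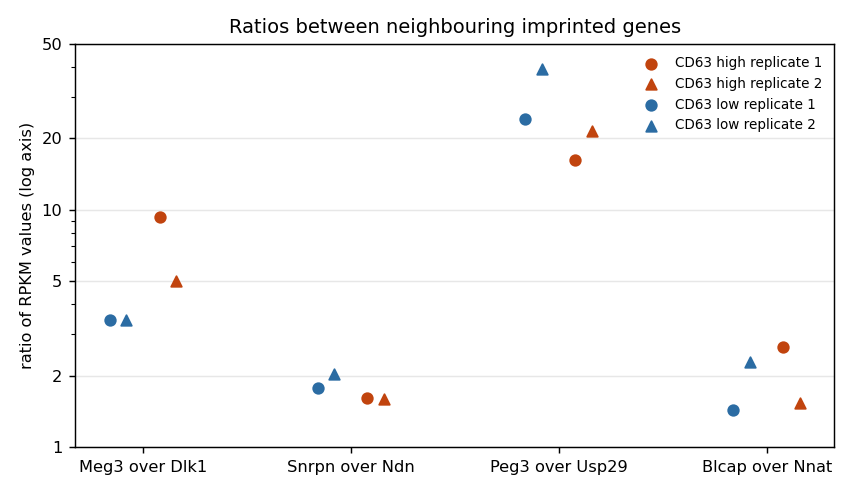
Ratio of RPKM values between neighbouring imprinted genes in each library, on a log axis, with CD63 high in orange, CD63 low in blue, replicate 1 as circles and replicate 2 as triangles. Meg3 over Dlk1 is higher in the high group (9.29 and 4.99 against 3.43 and 3.42), where the 9.29 rests on 113 counts of Dlk1. Peg3 over Usp29 and Snrpn over Ndn are lower there, and Blcap over Nnat overlaps. The ratios were not tested, and 46% of all tested genes showed no overlap by themselves.

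Snrpn and Ndn lie in the Prader-Willi region of chromosome 7. Snrpn (59982495 to 60140219, mm10) encodes SmN, a variant of the core splicing protein SmB that is abundant in brain. It stood at 53.1 and 48.4 CPM in the high group and 47.3 and 44.8 CPM in the low group. These values lay close together, with both CD63 high libraries slightly above the others. The log2 fold change was 0.14 (SE 0.20, 95% interval -0.29 to 0.57; edgeR adjusted p 0.820). Of the exon bases of Snrpn, 27.3% are shared with Gm38393 and 10.0% with Snurf, whose 216 bases lie wholly within them. The counting settings show no option for fragments that fit more than 1 gene, which featureCounts then leaves uncounted, so the level of Snrpn may be understated. Snurf had 0 counts in every library and Gm38393 at most 11. Any Snurf fragment also fits Snrpn, so the 0 counts of Snurf say nothing about its expression.

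Ndn (62346569 to 62350262, mm10) encodes necdin, a growth-suppressing protein of the MAGE family, and lies within the body of Gm32061, which had 0 counts. It stood at 56.4 and 51.9 CPM in the high group and 45.6 and 37.7 CPM in the low group, with no overlap. The log2 fold change was 0.38 (SE 0.20, 95% interval -0.07 to 0.83), and its edgeR adjusted p of 0.439 did not pass. Snrpn exceeded Ndn by RPKM ratios of 1.61 and 1.6 in the high group, below the 1.77 and 2.03 of the CD63 low libraries. Other paternally expressed genes of the region had few counts or none: Magel2 and Peg12 had 0 counts in every library, and Mkrn3 had 8 counts in CD63 low replicate 2 and none elsewhere. By counting error alone, a count of 0 allows up to 0.0857 to 0.103 CPM in a single library. Exon overlap was examined only for the genes of the set. For other genes, 0 counts may also come from fragments left uncounted. Ube3a, a ubiquitin ligase gene expressed from the maternal copy in neurons, was at 47.2 to 56.5 CPM with overlapping groups.

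Plagl1, Impact and H19 lie apart from these regions. Plagl1 (chromosome 10, 13060504 to 13131694, mm10) encodes a zinc finger transcription factor whose overexpression is known from transient neonatal diabetes. It had 48 to 75 counts, and its levels were 2.39 and 1.81 CPM in the high group and 1.58 and 1.36 CPM in the low group. The groups did not overlap, but the log2 fold change of 0.51 carried an SE of 0.55 and a 95% interval of -0.70 to 1.73 (edgeR adjusted p 0.744).

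Impact (chromosome 18, 12972252 to 12992948, mm10) encodes an inhibitor of the amino acid sensing kinase GCN2. It stood at 32.0 and 25.8 CPM in the high group and 31.5 and 31.5 CPM in the low group. Only CD63 high replicate 2 was lower, and the groups overlapped. The log2 fold change was -0.12 (SE 0.22, 95% interval -0.61 to 0.36; edgeR adjusted p 0.868), and 0.02 without that library. H19 (chromosome 7, 142575529 to 142578143, mm10), a long noncoding RNA of fetal tissues, had 0 counts in all 4 libraries. Its paternally expressed neighbour Igf2, a fetal growth factor gene, had 1 to 9 counts per library.

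**Figure D4:**
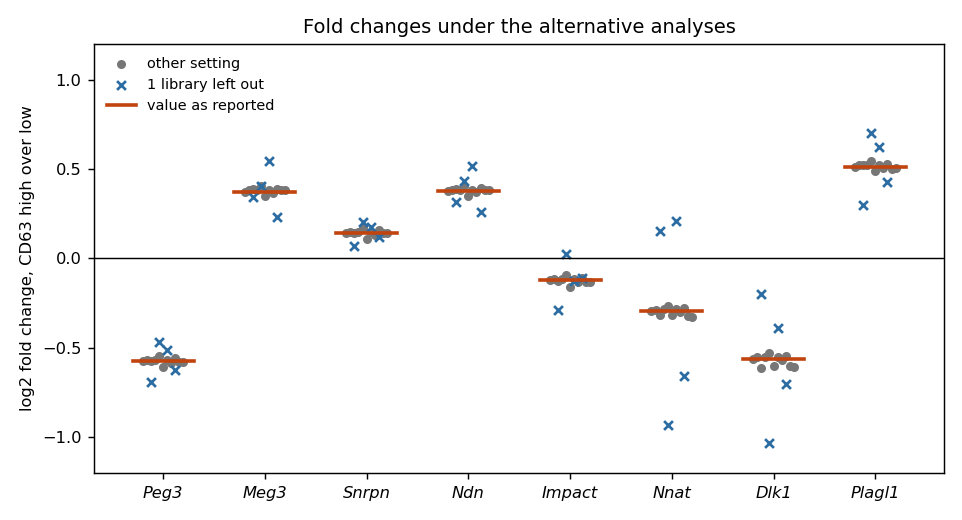
Log2 fold change, CD63 high over CD63 low, of the 8 tested genes: the reported value as an orange bar, 4 values with 1 library left out as blue crosses and 11 other settings as grey points. Leaving out 1 library moves Nnat between -0.93 and 0.21 and Dlk1 between -1.03 and -0.20, while Peg3 stays between -0.69 and -0.47.

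A wider list of 49 other imprinted genes was set beside these, grouped by the copy listed as expressed. The paternal and maternal lists also hold genes imprinted only in some tissues or transcripts, such as Ube3a and Inpp5f. Which copy was read in these cells is not known. Of these, 47 had a row, 7 had 0 counts in every library, among them Snurf with its bases inside Snrpn, and 33 were tested. edgeR called 1 of the 33 higher and none lower, where 2.5% of all tested genes were called higher and 0.287% lower. The called gene was Asb4, for an ankyrin repeat protein of ubiquitin ligases, which stood at 25.2 and 31.0 CPM in the high group and 14.7 and 10.7 CPM in the low group. Asb4 rose by a log2 fold change of 1.15 (SE 0.26, edgeR adjusted p 0.0406). The Asb4 log2 fold change was 0.99 without CD63 high replicate 2 (adjusted p 0.134) and 0.95 without CD63 low replicate 2 (0.0816), fits in which the lone library is assumed to vary like the other group. Scaled by library size alone, it was 1.12 (0.113). These 3 adjusted p did not pass, within a range of 0.000962 to 0.134 over 15 alternatives. By limma-voom 1 of the 33 was called, Asb4, and by DESeq2 5, which were Asb4, Mest and Inpp5f (higher) and Osbpl5 and Ddc (lower). DESeq2 called 4.03% of all tested genes higher and 1.15% lower.

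Among 12 tested genes listed as paternally expressed the median log2 fold change was 0.38 and none passed by edgeR. At an unadjusted p under 0.05 were 3, all higher, where 8.95% of all tested genes were higher and 5.96% lower at that p. Inpp5f, a phosphoinositide phosphatase gene of which only certain transcripts are imprinted, stood at 148 and 109 CPM in the high group and 58.5 and 75.5 CPM in the low group. Its log2 fold change of 0.94 (SE 0.23) did not pass (edgeR adjusted p 0.0550), though it did in 10 of 15 alternatives. Mest and Sgce, named after their values were seen, had few counts: Mest 58 and 74 against 9 and 13, and Sgce 45 and 37 against 2 and 20, with edgeR adjusted p of 0.0603 and 0.297. The most abundant per length of these genes, the amino acid transporter gene Slc38a4, stood at 161 to 180 CPM with a log2 fold change of 0.01 (SE 0.19), and Rasgrf1, an activator of Ras, at 121 to 147 CPM with -0.17 (SE 0.19).

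Among 12 tested genes listed as maternally expressed the median was 0.01 and none passed by edgeR, with none at an unadjusted p under 0.05. H13, for signal peptide peptidase, was at 301 and 250 CPM in the high group versus 214 and 212 CPM in the low group (0.37 on the log2 scale, SE 0.19, edgeR adjusted p 0.417). Commd1, a regulator of copper handling and NF-kB, had a log2 fold change of 0.09 (SE 0.21). In the group whose imprinted copy depends on tissue or transcript, with 9 tested and a median of -0.09, Tssc4 was the most abundant per length at 107 RPKM on average (log2 fold change -0.03, SE 0.19). At an unadjusted p under 0.05 by edgeR were 1 higher, the called gene Asb4, and 2 lower, Osbpl5 and Ddc. Of all tested genes, 8.95% were higher and 5.96% lower at that p. Osbpl5, named after its values were seen, had a log2 fold change of -1.17 (SE 0.30, edgeR adjusted p 0.0699). Ddc, for aromatic amino acid decarboxylase, was at 183 and 191 CPM in the high group versus 290 and 299 CPM in the low group (-0.65, SE 0.19, edgeR adjusted p 0.104), and Cd81, a tetraspanin gene, at 43.6 and 83.5 against 107 and 74.7 CPM (-0.52, SE 0.30, edgeR adjusted p 0.474). The Cd81 value was -0.12 without CD63 high replicate 1 and -0.24 without CD63 low replicate 1, against -1.06 without CD63 high replicate 2.

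**Figure D5:**
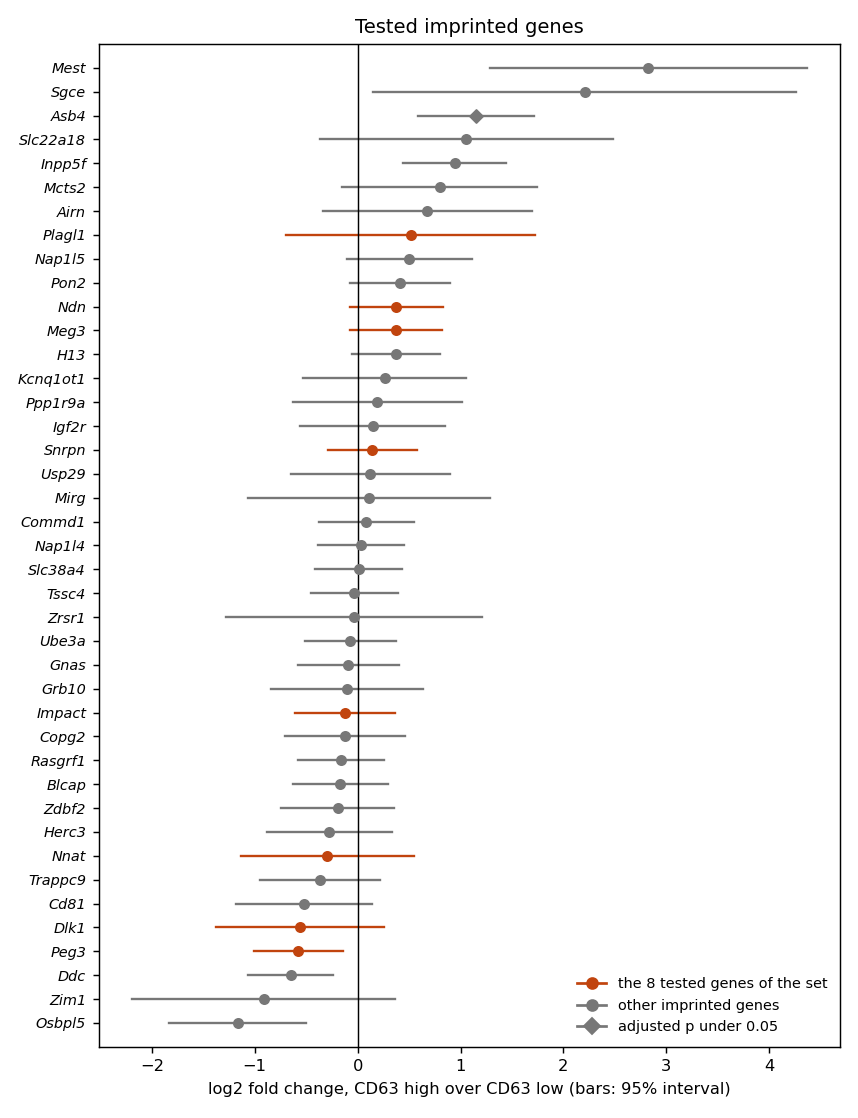
Log2 fold change, CD63 high over CD63 low, with its 95% interval for the 41 tested imprinted genes, the 8 of the set in orange and the 33 others in grey, ordered by value. Asb4, drawn as a diamond, is the called gene, and of the 8 intervals in orange that of Peg3 alone does not cross 0.

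Factors that keep imprints were called in neither direction. Of 15, 11 were tested, with a median log2 fold change of -0.14. By edgeR, DESeq2 and limma-voom 0 were called, beside 2.79%, 5.18% and 2.14% of all tested genes. At an unadjusted p under 0.05 by edgeR stood 1, against 14.9% of all tested genes. Zfp57 was not tested, with 5 counts in CD63 high replicate 1 and none elsewhere. Trim28, which ZFP57 recruits to imprinted regions, stood at 34.6 to 42.8 CPM (log2 fold change -0.14, SE 0.21), and Ctcf, an insulator protein gene, at 23.3 to 33.5 CPM (0.22, SE 0.23). Dnmt3a, a DNA methyltransferase gene, was at 33.5 and 33.6 CPM in the high group versus 46.3 and 46.5 CPM in the low group (-0.47, SE 0.20, edgeR adjusted p 0.303).

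Genes whose proteins work with those of the set were compared in the same way. Of 25 listed, 21 were tested, with a median log2 fold change of 0.13. edgeR called 0, DESeq2 1 (Atp2a3, lower) and limma-voom 0, beside 2.79%, 5.18% and 2.14% of all tested genes. At an unadjusted p under 0.05 by edgeR stood 4, against 14.9% of all tested genes. Spcs1 and Spcs2, signal peptidase subunits of the complex that neuronatin binds, had log2 fold changes of 0.31 (SE 0.19) and 0.10 (SE 0.19), and Atf4, the transcription factor downstream of GCN2, one of 0.17 (SE 0.20). The 4 genes with an unadjusted p under 0.05, named after their values were seen, were the signal peptidase subunit gene Sec11c (0.53), the calcium pump genes Atp2a2 (-0.77) and Atp2a3 (-0.76), and the receptor gene Notch1 (-0.80), with edgeR adjusted p of 0.143 to 0.217. Snrpb, which encodes the SmB proteins, was expressed above Snrpn at 2.18 to 2.76 times its RPKM in each library.

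Snrpn had the highest level per length, and genes whose pattern over the 4 libraries was among the 5 nearest to its own were Ndufaf5, Psmd12, Slc35c2 and Mrps34. Their Euclidean distances from Snrpn in log2 CPM centred on the gene mean were 0.031 to 0.042, among 7663 genes whose average log2 CPM reached 3. These 4 genes had log2 fold changes between 0.13 and 0.15 and none passed. Values near that of Snrpn follow from picking the genes by this distance and are no separate result. With 4 libraries a small distance is a description only.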

How the data were processed

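RNA of 4 libraries of sorted mouse beta cells was measured. The authors deposited raw fragment counts per gene name, made with featureCounts 1.6.2 and the Cell Ranger mm10 3.0.0 annotation per the file headers, for paired ends and with no strand or multi-mapping option. STAR 2.6.0c is named per the submitters' processing notes. Per the labels, cDNA was made from polyA RNA with a SMARTer ultra low input kit; no molecular identifiers are stated, so the limit for a count of 0 covers counting error only. Here, genes were filtered with filterByExpr (minimum count 10, minimum total 15) of edgeR 4.0.16 in R 4.3.3, TMM-scaled, and compared by the quasi-likelihood F test across 13241 genes. Standard errors were derived from F (absolute log2 fold change divided by its square root), and 95% intervals use the fit's degrees of freedom. The same code was tested on simulated data. Alternatives used DESeq2 1.42.0, limma 3.58.1, other scaling, filters, a replicate block and 1 library left out at a time. The limit of a count of 0 is 3 counts. A chi-square test of counts within groups gave 37.3 and 73.7 per degree of freedom, so no library was counted as a copy.

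The set and all gene lists were chosen with earlier results of these data known. Named genes were the 10 genes, Cd63, genes whose exons overlap theirs, the called genes and the 3 highest per length of each imprinted, maintenance and partner list, the 5 nearest in pattern to the gene of the set with the highest level per length, and the most abundant marker of each other cell type. Genes named beyond this are neighbours in an imprinted region, factors at or near 0 counts, or genes named after their values were seen. Of the 5 nearest in pattern, 1 is not reported here.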

Additional observations from a re-analysis of the deposited data

How the results depend on the processing

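Over 15 alternatives, of which the crossed block was chosen after seeing the data, 116 of 120 log2 fold changes of the 8 genes kept their direction and their side of the threshold, and 423 of 464 values of the other named genes did. Direction reversed without 1 library for Nnat (0.15 without CD63 high replicate 1 and 0.21 without CD63 low replicate 1; range -0.93 to 0.21), Impact (0.024 without CD63 high replicate 2; range -0.29 to 0.024), Slc38a4 (-0.075 and -0.06 without CD63 high and CD63 low replicate 1; range -0.075 to 0.093), Tssc4 (0.067 without CD63 low replicate 1; range -0.11 to 0.067) and Spcs2 (-0.0100 without CD63 high replicate 2), and with library size only for Slc38a4 (-0.034). None of these passed. A fit without 1 library leaves 1 in that group, which is assumed to vary like the other group. The cause was not tested. All tested genes called numbered 369 (331 higher, 38 lower), 686 with DESeq2 (534 and 152), 67 with library size only (66 and 1), 940 without a low-count filter (690 and 250), and 450 to 769 with 1 library left out (512 and 257 without CD63 low replicate 1). Other imprinted genes called numbered 1, against 5 with DESeq2, 2 with relative log expression factors, 2 with upper quartile factors, 0 with library size only, 2 without the 10 most abundant genes, 5 without a filter, 3 at a minimum count of 30, and 1 to 2 with 1 library left out. Partners called numbered 0, against 1 with DESeq2, 2 without a filter, and 0 to 2 with 1 library left out. The median of the 8 genes was 0.01, and 0.0049 to 0.19 with 1 library left out. The 8 genes called numbered 0 under each alternative except the crossed block. Replicate numbers in the labels name no shared animal or day, and for the CD63 low libraries the numbers in the titles, used here, differ from those of the deposited tables, so which libraries share a number is in doubt. Deviations from the group mean correlated at -0.101 for same-numbered libraries. With 2 libraries per group, the 0.101 of the crossed pairing is the same value with its sign reversed. Neither pairing is established. With the replicate block, 616 genes were called (535 higher, 81 lower), 0 of the 8 and 4 other imprinted genes. With a crossed replicate block, 942 genes were called (607 and 335), 1 of the 8, 5 other imprinted genes and 3 partners. Of the 8 genes, Plagl1 had the fewest counts (48 to 75) and the largest SE (0.55).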
